A study of Mus musculus with 10 samples.

Results

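The collagen family was followed across 10 laser captures of the nasal respiratory epithelium of mouse embryos at E16.5. Members were all genes whose platform symbol is Col, a number, the letter a and a number. There were 44 such genes among 22180 named genes, each read from its brightest probe set by mean RMA value. Of the 44, 40 had a mean above the 25th percentile of all genes, a log2 value of 4.58, and were tested among 16635 genes. The wild-type (WT) group held 5 embryos, 4 labelled female and 1 labelled male (WT 3). The triple knockout (TKO) group held 5 embryos with homozygous deletions, miR-34a-/- together with miR-34b/c-/- and also miR-449a/b/c-/-, 2 labelled female (TKO 1 and TKO 3) and 3 labelled male (TKO 2, TKO 4 and TKO 5). WT 3 was thus the only male of its group. All embryos shared the same handling: fixation in formalin for 24 h, sections of 8 µm, laser capture, and 1 Affymetrix array for each embryo. The sources used here name no strain, litter or captured area, so it is not known whether the embryos are independent. The p-values of the genotype test weigh the genotype difference against the spread between these 10 embryos.

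Collagens are secreted or membrane-bound proteins whose chains wind around each other into a rope-like helix built on glycine at regular steps. Fibrillar collagens give bone, dermis and other connective tissue their tensile strength, and basement membrane collagens form the sheet on which an epithelium rests. Epithelial cells make part of that sheet and the collagens that anchor them to it, while mesenchymal cells, cartilage cells and bone-forming cells below the epithelium make most fibrillar collagen. In the embryonic nose, bone and cartilage form close to the respiratory lining.

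The targeted genes served as a check of the labels. They were read from a fit of all genes, dim ones included. The WT mean of Mir449c, 7.26 ± 0.28, fell to 3.67 ± 0.49 in the knockouts (SD, n = 5 each). This was a log2 change of -3.41 with sex in the model (limma adjusted p = 2.6e-05). Of the other targeted genes, Mir449a fell by 1.81 and Mir449b by only 0.33, from a mean of 12.17 in WT to 11.79 in TKO. Mir34a, Mir34b and Mir34c had log2 changes of -0.15 to -0.28 that did not pass. Mir34a and Mir34c, with WT means of 3.46 and 3.28, were below the filter already in WT, where a fall could hardly be seen. Probe sets also check nothing where they lie outside a deleted part. The check thus rests on Mir449c and Mir449a. The epithelial markers Epcam (8.29 to 8.78), Cdh1 (10.32 to 10.55) and Krt8 (11.48 to 11.69) and the cilia regulator Foxj1 (10.74 to 11.13) had ranges below 1 on the log2 scale. Of 13 tested epithelial markers 2 did not, the basal keratins Krt14 (10.41 to 11.52) and Krt15 (10.54 to 11.63), and nor did 3 of 11 multiciliated genes, Gmnc (7.27 to 9.33), Sntn (9.70 to 10.90) and Ccno (9.16 to 10.23). All 7 tested bone markers had wider ranges than 1. Ibsp, a matrix protein of mineralising bone, ran from 4.83 to 10.2, and Dmp1, a matrix protein of osteocytes, from 3.62 to 8.08. All levels are log2 RMA values, in which a step of 1 is a 2-fold difference, and levels of different genes are not compared because each probe set has its own brightness.

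Type I collagen varied more between embryos than any other collagen. Col1a1, the major chain of the collagen of bone and dermis, was 10.62, 9.14, 11.62, 12.04 and 10.63 in WT 1 to WT 5 and 9.62, 11.45, 8.80, 11.79 and 11.50 in TKO 1 to TKO 5. Its partner chain Col1a2 was 10.52, 9.03, 11.57, 11.65 and 10.68 in WT and 9.95, 11.62, 9.13, 11.94 and 11.55 in TKO. Both genes were lowest in WT 2, TKO 1 and TKO 3, all labelled female. They were highest in WT 4, a female, and in the 4 embryos labelled male, and the genotypes overlapped throughout. From the lowest to the highest embryo Col1a1 differed 9.41-fold and Col1a2 7.53-fold. The residual SD of Col1a1 after genotype and sex were fitted, 0.883, lay at the 99.6th percentile of all genes tested, and that of Col1a2 at the 99.5th.

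**Figure D1:**
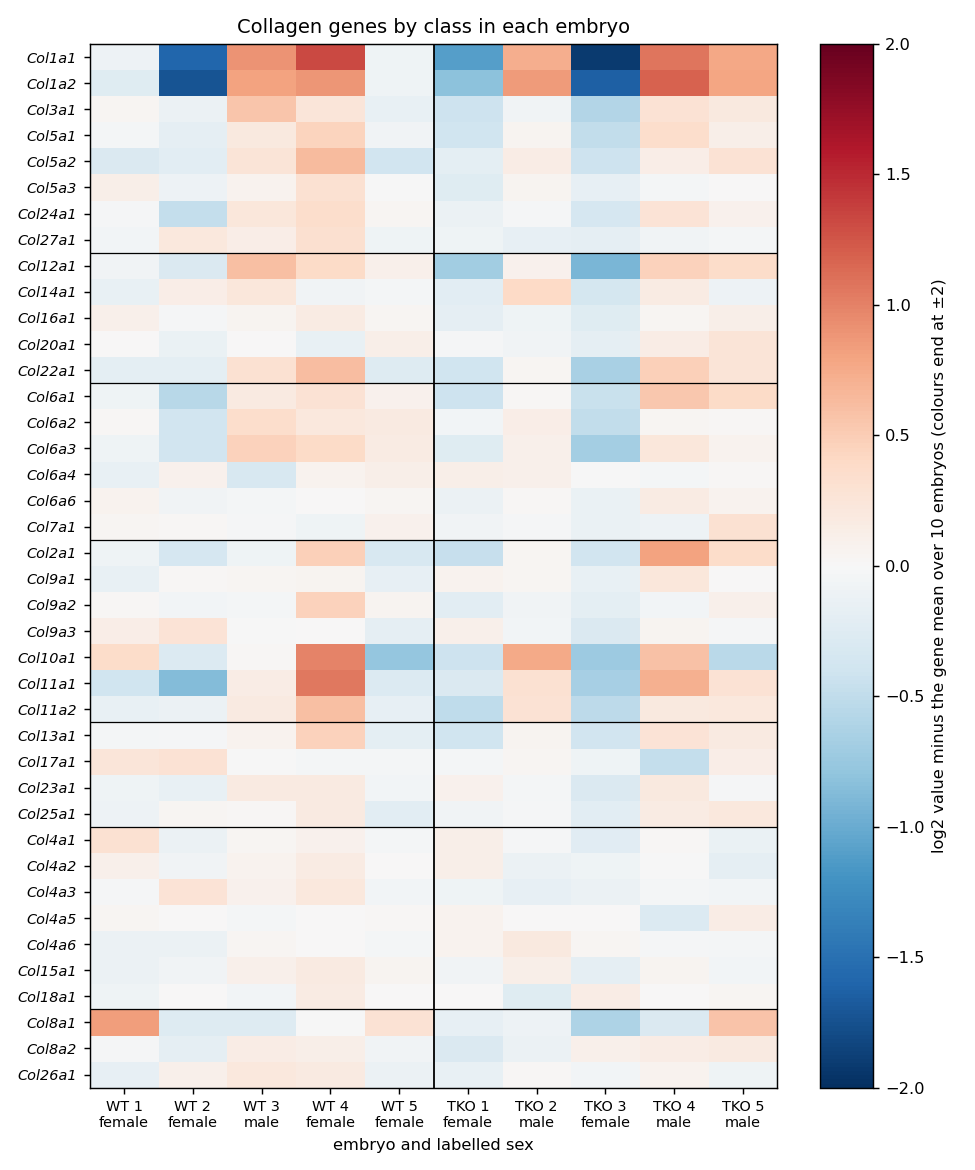
Level of the 40 tested collagen genes (rows, grouped by class) in each embryo (columns, with labelled sex), as the log2 value minus the mean of that gene over the 10 embryos. The rows of Col1a1 and Col1a2 run from deep blue in WT 2 and TKO 3 to red in WT 4 and TKO 4, while the basement membrane rows stay pale.

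A range of at least 1 on the log2 scale was seen for 13 of the 40 collagens, against 8.84% of all genes tested. Besides type I these were the cartilage collagens Col11a1, Col10a1, Col2a1 and Col11a2, the fibril-associated Col12a1 and Col22a1, the beaded filament chains Col6a3 and Col6a1, the fibrillar Col3a1 and Col5a2, and Col8a1, a short-chain collagen of networks under endothelium. Col11a1, which sets the width of cartilage fibrils together with type II collagen, was 4.96, 4.49, 5.51, 6.41 and 5.08 in WT and 5.07, 5.67, 4.69, 6.07 and 5.65 in TKO. Col10a1, the collagen of hypertrophic cartilage, was 6.27, 5.63, 5.94, 6.90 and 5.14 in WT and 5.49, 6.67, 5.18, 6.50 and 5.37 in TKO. Col8a1 followed another order, with WT 1 (7.32) and TKO 5 (7.06) highest and TKO 3 (5.87) lowest. At the quiet end, the ranges of Col6a6, Col4a6, Col4a2, Col15a1 and Col26a1 were the smallest of the 40, from a lowest to a highest value of 5.18 to 5.47, 5.12 to 5.44, 6.29 to 6.62, 5.43 to 5.80 and 7.17 to 7.54.

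The start regions of the genes that carry these patterns are shown as far as a table of RefSeq start regions (build GRCm38.p6) held them; it held 38 regions for 35 of the 44 collagens and none for Col1a1 or Col12a1. Col1a2 stands for the chains of largest spread, Col3a1 for the genes that passed the genotype test, and Col6a3 for the tested gene with the smallest p among those that did not pass. Each is the 250 bases before the annotated start, 5′ to 3′ on the gene's strand, with capitals for matches, on either strand, to the TATA box (TATAAA), the CCAAT box (letters as in its name) or the GC box (GGGCGG). The Col1a2 region is chr6:4505368-4505617 on the + strand, that of Col3a1 is chr1:45311288-45311537 on the + strand, and that of Col6a3 is chr1:90843972-90844221 on the - strand.
Col1a2: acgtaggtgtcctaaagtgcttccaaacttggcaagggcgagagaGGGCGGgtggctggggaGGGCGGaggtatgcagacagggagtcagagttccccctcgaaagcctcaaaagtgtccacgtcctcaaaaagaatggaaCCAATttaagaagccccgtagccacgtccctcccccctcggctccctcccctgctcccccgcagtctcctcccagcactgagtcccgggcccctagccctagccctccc
Col3a1: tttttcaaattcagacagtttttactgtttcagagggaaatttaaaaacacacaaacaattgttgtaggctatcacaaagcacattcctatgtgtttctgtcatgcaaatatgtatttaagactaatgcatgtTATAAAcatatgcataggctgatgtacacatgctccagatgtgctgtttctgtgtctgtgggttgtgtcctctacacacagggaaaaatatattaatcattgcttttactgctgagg
Col6a3: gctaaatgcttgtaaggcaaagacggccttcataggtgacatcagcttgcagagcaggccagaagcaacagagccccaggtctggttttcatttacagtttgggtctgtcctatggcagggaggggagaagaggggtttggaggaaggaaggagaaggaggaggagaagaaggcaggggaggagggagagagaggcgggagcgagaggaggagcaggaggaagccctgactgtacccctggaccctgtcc
The Col1a2 region held a GC box starting at -205 and a further one at -188, counted from the start base at 0, and a CCAAT box at -109. The Col3a1 region held a TATA box at -117, and the Col6a3 region held none of the 3 motifs. Over the full windows of the table, which run from 250 bases before to 50 bases after the start, the GC box was in 23 of 38 collagen windows (60.5%) against 35.7% of 32851 windows in the table, the CCAAT box in 34.2% against 37.4% and the TATA box in 13.2% against 13.6%. No match of 1 motif overlapped one of another in the regions shown. A match is a description of the letters only.

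Many collagens went up and down together from embryo to embryo. Over the 10 embryos, 13 of the 39 other tested collagens correlated with Col1a1 at an r above 0.8, among them Col5a1 and Col6a3 (0.93 each), Col24a1 and Col12a1 (0.92 each), Col22a1 (0.90), Col11a1 (0.90) and Col3a1 (0.84). Of the basement membrane class only Col15a1, which sits between basement membrane and connective tissue, came close, at 0.80. Epithelial anchoring collagens and the other basement membrane chains had r values of at most 0.33. Col17a1, the collagen of hemidesmosomes in basal epithelial cells, had an r of -0.34, Col4a5 of -0.25, Col18a1, the source of endostatin, of -0.21, Col4a2 of 0.13 and Col7a1, the anchoring fibril collagen, of 0.20. These values describe arrays that share their overall scaling. The share of all genes with an r above 0.8 is not given here, so the 13 of 39 do not set collagens apart from other genes. Of all 780 pairs of collagens 86 had an r above 0.8, and the median r of the 780 was 0.37. This median was 0.75 among the 8 fibrillar chains, 0.54 among the 7 cartilage chains and -0.019 among the 7 tested basement membrane chains.

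**Figure D2:**
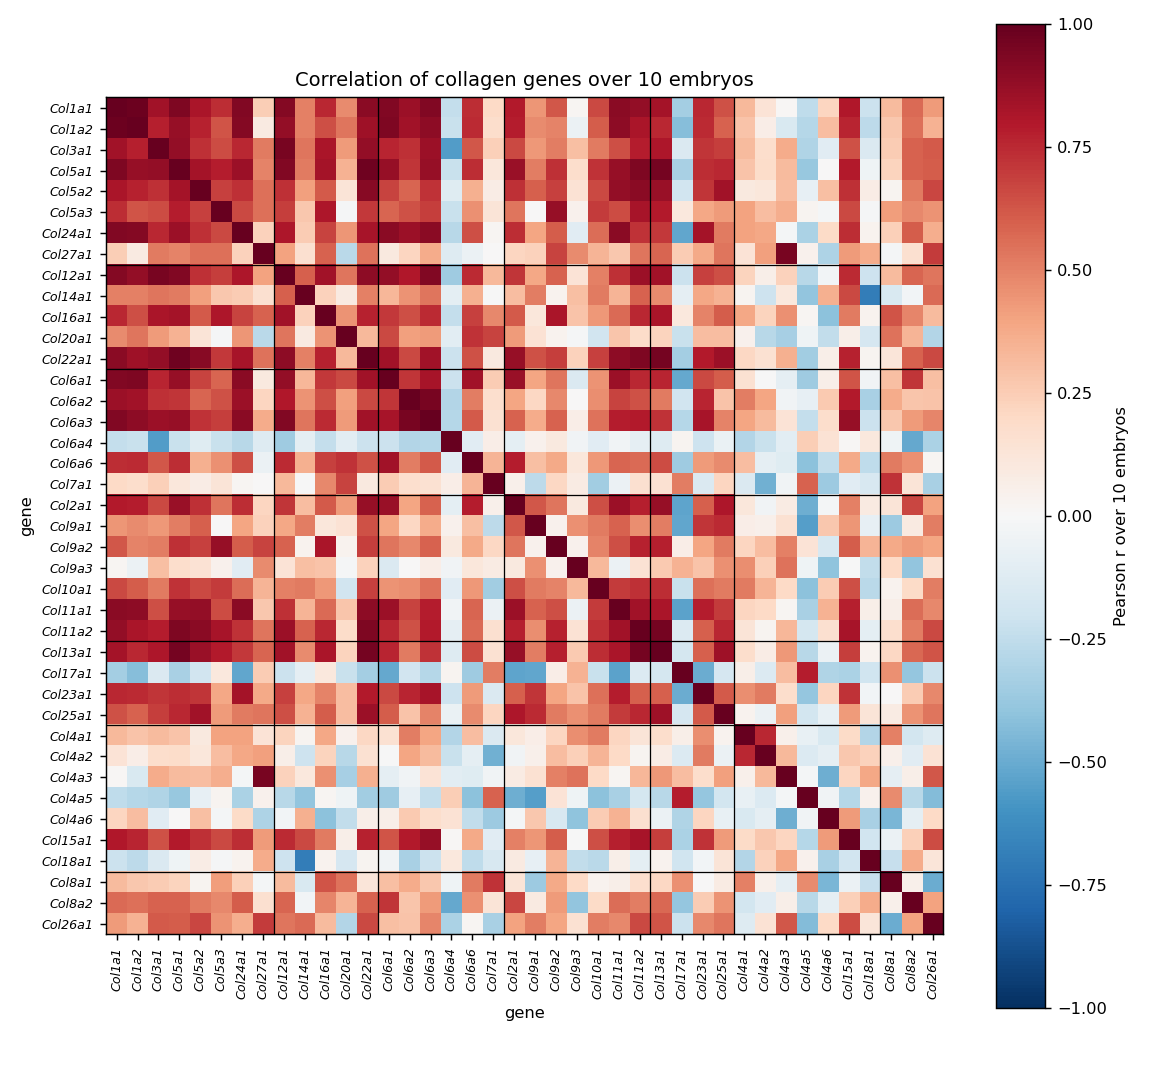
Pearson r over the 10 embryos for every pair of the 40 tested collagens, in the same class order as the map of levels. A red block covers most fibrillar, type VI and cartilage chains, with Col1a1 and Col1a2 at 0.98, and the basement membrane block stays pale with a median of -0.019.

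Chains that join in 1 molecule were compared pair by pair, 14 pairs in all, with permutation tests adjusted over the 14; the pair Col4a3 and Col4a4 was left out because Col4a4 lay below the filter. Of the 14 pairs, 9 passed. Col1a1 and Col1a2 had a Pearson r of 0.98 (permutation test, p = 5e-05, adjusted p = 0.00035) and a Spearman rho of 0.94 (permutation test, p = 0.00022), and r was 0.97 without WT 2 and TKO 3, the embryos farthest from the median. Col6a2 and Col6a3, chains of the beaded filaments that surround cells, had an r of 0.95 (permutation test, p = 1e-05, the smallest that 100000 resamples can give, adjusted p = 0.00014), a rho of 0.95 (permutation test, p = 0.00011), and an r of 0.88 without WT 2 and TKO 3. Col4a1 and Col4a2, whose genes lie head to head and whose chains form the common network of basement membranes, had an r of 0.75 (permutation test, p = 0.0104, adjusted p = 0.0182), a rho of 0.83 (permutation test, p = 0.00455) and an r of 0.88 without TKO 3 and WT 1. All 3 relations held without the outlying embryos.

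The chains of cartilage fibrils followed one another as well. Col2a1 and Col11a1 had an r of 0.86 (permutation test, adjusted p = 0.00653) and a rho of 0.83 (permutation test, adjusted p = 0.0134), Col2a1 and Col11a2 had an r of 0.77 (permutation test, adjusted p = 0.0161) and a rho of 0.84 (permutation test, adjusted p = 0.0134), and Col11a1 and Col11a2 had an r of 0.84 (permutation test, adjusted p = 0.00748) and a rho of 0.81 (permutation test, adjusted p = 0.0149). Without WT 4 and TKO 4 the first of these was 0.75 and missed the threshold when adjusted over the pairs (exact permutation, adjusted p = 0.0785), while without the same embryos Col2a1 and Col11a2 stood at 0.82. The type IX chains, which coat cartilage fibrils, showed no such relation: Col9a1 and Col9a2 had an r of 0.045 (permutation test, p = 0.907), Col9a2 and Col9a3 of 0.045 (permutation test, p = 0.89) and Col9a1 and Col9a3 of 0.46 (permutation test, p = 0.184). Col4a5 and Col4a6, the X-linked pair of epithelial basement membranes, stood at -0.036 (permutation test, p = 0.919), and Col8a1 and Col8a2 at 0.047 (permutation test, p = 0.901). Col8a1 apart, the chains of these 5 pairs had ranges below 1 on the log2 scale. So did Col4a1 (0.52) and Col4a2 (0.33), a pair that passed. The relations of Col5a1 with Col5a2 (r = 0.83), Col6a1 with Col6a3 (r = 0.82) and Col6a1 with Col6a2 (r = 0.71) passed with all embryos, but not without the 2 farthest embryos, where they were 0.68, 0.69 and 0.30 over 8 embryos (exact permutation, p = 0.0619, 0.0583 and 0.476). Their rho values over all 10 embryos were 0.81, 0.79 and 0.62 (permutation test, adjusted p = 0.0149, 0.016 and 0.0941). Chains of different molecules could be closer still. Col11a1 had an r of 0.903 with Col1a1, and with Col22a1 Col2a1 had 0.87 and Col5a1 0.974, each above that with its partners. Col1a1 with Col1a2, Col6a2 with Col6a3 and Col4a1 with Col4a2 had no closer collagen. No test compared partners with other pairs, so the relations are not shown to be particular to partner chains.

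Embryos with high fibrillar collagen had high markers of bone and mesenchyme, and of some other tissues outside the epithelium. The mean level of the 8 fibrillar chains, each centred on its own mean, ran from -0.52 in WT 2 to 0.57 in WT 4 among WT and from -0.72 in TKO 3 to 0.40 in TKO 4 among TKO. The mean of 7 tested bone markers (of 12 listed) ran from -1.29 in WT 2 to 1.39 in WT 4 and from -1.34 in TKO 3 to 1.12 in TKO 4. The mean of 17 tested mesenchyme markers (of 20) ran from -0.30 to 0.29 in WT and from -0.52 to 0.43 in TKO, with WT 2 and TKO 3 again lowest of their genotypes. Leukocyte markers (7 tested of 8) had a like order, from -0.52 in WT 2 to 0.27 in WT 3 and from -0.51 in TKO 3 to 0.38 in TKO 4. Endothelial markers (8 of 10) ran from -0.29 in WT 2 to 0.37 in WT 3 and from -0.37 in TKO 1 to 0.17 in TKO 4, and collagen proteases and their inhibitors (9 of 10) from -1.15 in WT 2 to 0.73 in WT 3 and from -1.09 in TKO 3 to 0.67 in TKO 4. Skeletal muscle and glia markers had other orders. Muscle was lowest of WT in WT 2 (-0.52), but stood at 0.83 in WT 1 against 0.13 in WT 4, and at -0.37 in TKO 4. Glia was highest in WT 1 (0.74) and lowest in TKO 4 (-0.40). The mean of 13 tested epithelial markers (of 14) moved far less, from a WT minimum of -0.058 to a maximum of 0.12, and from -0.069 to 0.11 over the knockouts. The part of any of these tissues in the collagen differences was not tested, and in bulk tissue more cells of a type and more RNA per cell cannot be told apart.

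**Figure D3:**
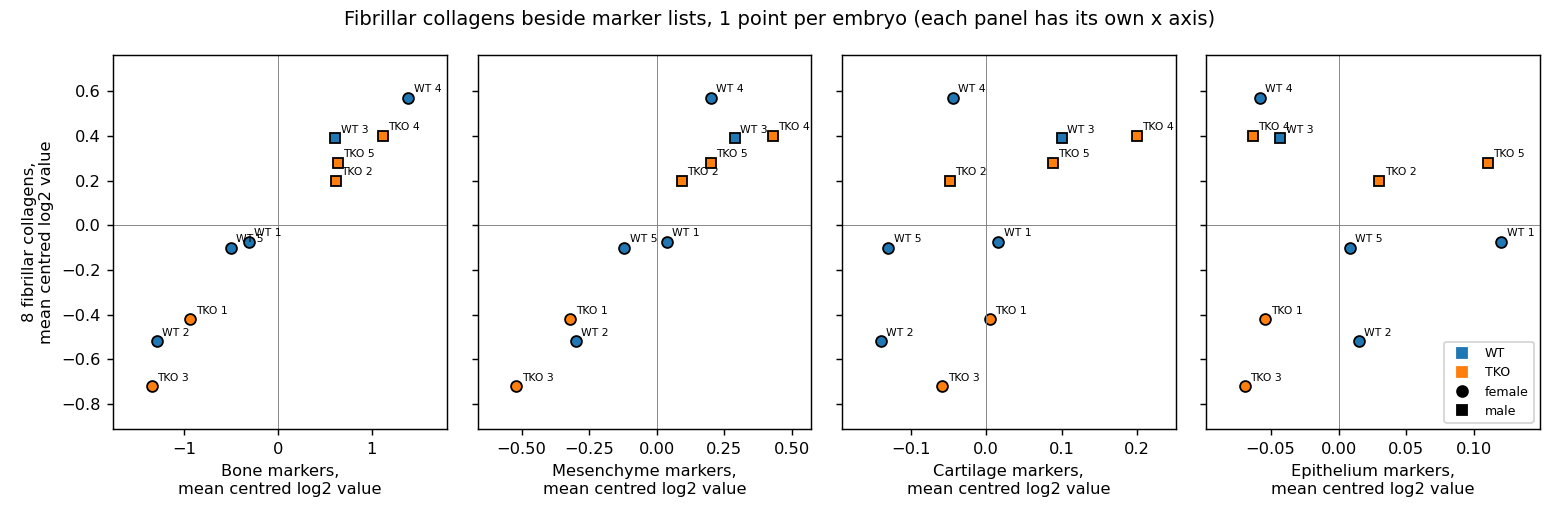
Mean centred log2 level of the 8 fibrillar collagens (y) against that of the bone, mesenchyme, cartilage and epithelium markers (x), 1 point per embryo, with WT in blue, TKO in orange, females as circles and males as squares. WT 2, TKO 1 and TKO 3 lie low on both the bone and the mesenchyme axis, and the epithelium axis spans only -0.069 to 0.12.

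Genes outside the family with the pattern most like that of the fibrillar chains, by Pearson r over the 10 embryos, were Sparc, a collagen-binding matrix protein (0.982), the proteoglycan gene Bgn (0.978), Cdh11, a cadherin of mesenchyme and bone-forming cells (0.975), Dmp1 (0.973), Bmp3 (0.970) and Srpx2 (0.966). The median over all genes that are no collagens was -0.081. For the cartilage class they were Il27ra (0.973), Phex, an osteocyte peptidase (0.973), Dmp1 (0.968), Cthrc1 (0.962), Ifitm5, a gene of osteoblasts (0.950) and Ptgis (0.945). No gene of the cartilage marker list was among these 6. Of 16 such markers 13 were tested, and 4 of the 13 had a range of at least 1 on the log2 scale. Among the tested ones, Sox9 lay between 7.78 and 8.41, Chad between 6.75 and 8.55 and Hapln1 between 5.45 and 6.61. Matn1, Matn3 and Cnmd lay below the filter, with values of at most 4.5, 4.70 and 4.38. Acan, the cartilage proteoglycan, lay between 4.64 and 5.31 in all embryos, and the mean of the 13 markers ran from -0.14 to 0.10 in WT and from -0.058 to 0.20 in TKO. For the basement membrane class the 6 most alike were Crhbp (0.929), P4htm (0.914), Slc13a4 (0.912), Snph (0.912), Il1f6 (0.895) and Insm2 (0.895), none of them on a list used here.

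With labelled sex in the model, Col3a1 and Col12a1 were lower in TKO, and no collagen was higher. Col3a1, the fibrillar collagen of soft tissues and vessel walls, was 7.73, 7.57, 8.25, 7.93 and 7.54 in WT and 7.28, 7.61, 7.10, 7.98 and 7.89 in TKO. The genotypes overlapped, and the TKO values fell into 2 low females and 3 males within the WT range. Within each sex they did not overlap: the TKO females (7.28 and 7.10) lay below the 4 WT females (7.54 to 7.93), and the TKO males (7.61 to 7.98) below the WT male (8.25). The sex-adjusted decrease was 1.39-fold (log2 change -0.48 ± 0.11 SE, limma adjusted p = 0.0234), while the plain means, 7.80 ± 0.29 and 7.57 ± 0.38 (SD, n = 5 each), differed by -0.24.

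Col12a1, a collagen that sits on the surface of type I fibrils, was 6.07, 5.85, 6.74, 6.52 and 6.24 in WT and 5.45, 6.23, 5.23, 6.60 and 6.51 in TKO. TKO 1 and TKO 3 were the lowest of the 10 embryos, and the other TKO embryos lay within the WT range. Its arrays too were apart within each sex, with the WT male at 6.74 above the 3 TKO males and the WT females above both TKO females. The sex-adjusted decrease was 1.56-fold (log2 change -0.64 ± 0.15 SE, limma adjusted p = 0.0349), and the plain means were 6.29 ± 0.35 and 6.0 ± 0.62 (SD, n = 5 each). Permuting genotype within sex gave an exact p of 0.0167 for each of Col3a1 and Col12a1, the smallest that 60 assignments can give, while permuting it over all embryos gave an exact p of 0.302 and 0.389.

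**Figure D4:**
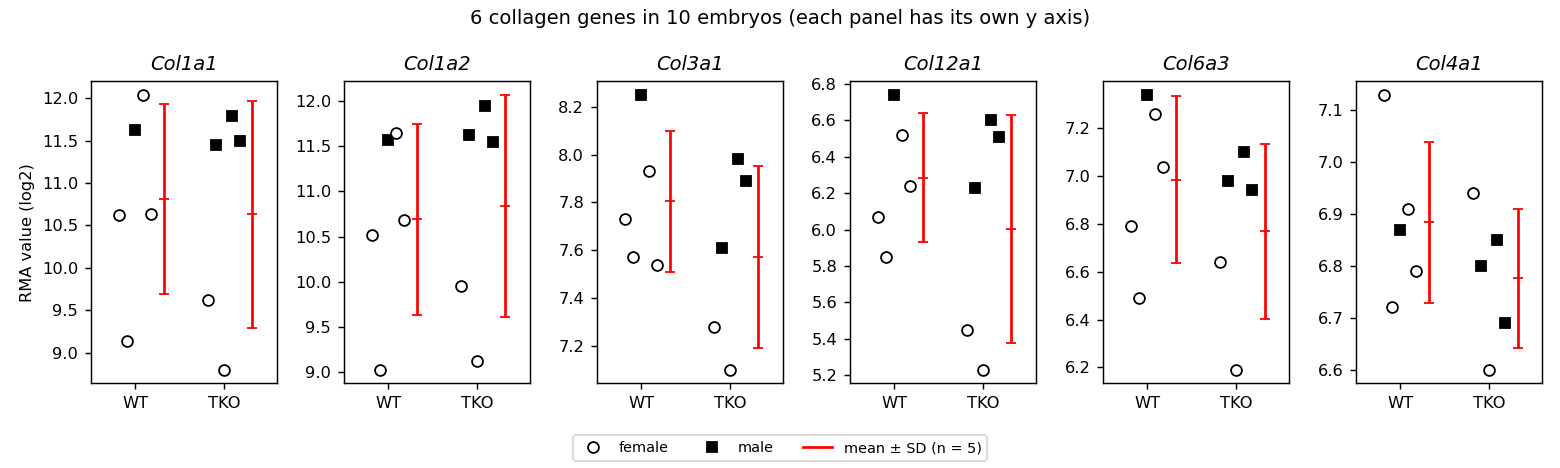
RMA values (log2, y) of Col1a1, Col1a2, Col3a1, Col12a1, Col6a3 and Col4a1 in WT and TKO embryos, with females as open circles, males as filled squares and the mean ± SD (n = 5) in red beside each genotype. In Col3a1 and Col12a1 the 2 TKO females lie lowest and the WT male highest, and the genotypes overlap in every panel.

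The 2 calls are 5.00% of the 40 tested collagens, against 1.12% of all genes tested that were lower in TKO, and none of the 40 was higher, against 4.39% of all genes. Both calls depended on the model and on single embryos. Without sex in the model no collagen passed, with log2 changes of -0.24 for Col3a1 (limma adjusted p = 0.50) and -0.28 for Col12a1 (limma adjusted p = 0.607), against 6.20% of all genes called and 1.42% lower. With the mesenchyme markers as a covariate neither passed, against 1.10% of all genes called and 0.180% lower (Col3a1 -0.29, limma adjusted p = 0.172, Col12a1 -0.34, limma adjusted p = 0.219). With the bone markers as a covariate, a fit added after the data were seen, both passed, against 2.96% of all genes called, 2.43% higher and 0.523% lower (-0.39 and -0.49, limma adjusted p = 0.0465 and 0.0349). Leaving out WT 3, TKO 1 or TKO 3 ended the Col3a1 call (limma adjusted p = 0.112, 0.056 and 0.12), and leaving out WT 1, WT 3, TKO 1, TKO 2 or TKO 3 ended that of Col12a1 (limma adjusted p = 0.0607, 0.0528, 0.10, 0.0678 and 0.17). In those fits the changes of Col3a1 were -0.42 to -0.51 and those of Col12a1 -0.52 to -0.83.

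Most collagens leaned the same way without passing. Of the 40, 35 (87.5%) had a log2 change below 0, against 50.2% of all genes tested, and the median change was -0.18 against -0.00052 over all genes. Single embryos moved that median both ways: it was -0.10 without WT 4, with 32 below 0, and -0.12 without TKO 3, with 30 below 0. Without WT 3 it was -0.24, with 35 below 0. Since the chains followed one another over embryos, they are not independent counts of a direction. With an unadjusted p below 0.05, 5 of the 40 were lower, 12.5% of them against 7.72% of all genes, and none was higher, against 13.2% of all genes. No collagen had arrays that were apart over all 10 embryos, where 7.60% of all genes did and 2.07% were lower. Within each sex, Col3a1, Col12a1, Col27a1, Col5a3 and Col4a3 were lower in every TKO embryo, 5 of 40 against 4.69% of all genes tested, and none was higher in every TKO embryo, against 9.94% of all genes (14.6% were apart in either direction). Without sex 30 of the 40 were below 0, with a median of -0.080. With the mesenchyme markers as a covariate 20 were, with a median of -0.0033, and with the bone markers 33, with a median of -0.067.

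**Figure D5:**
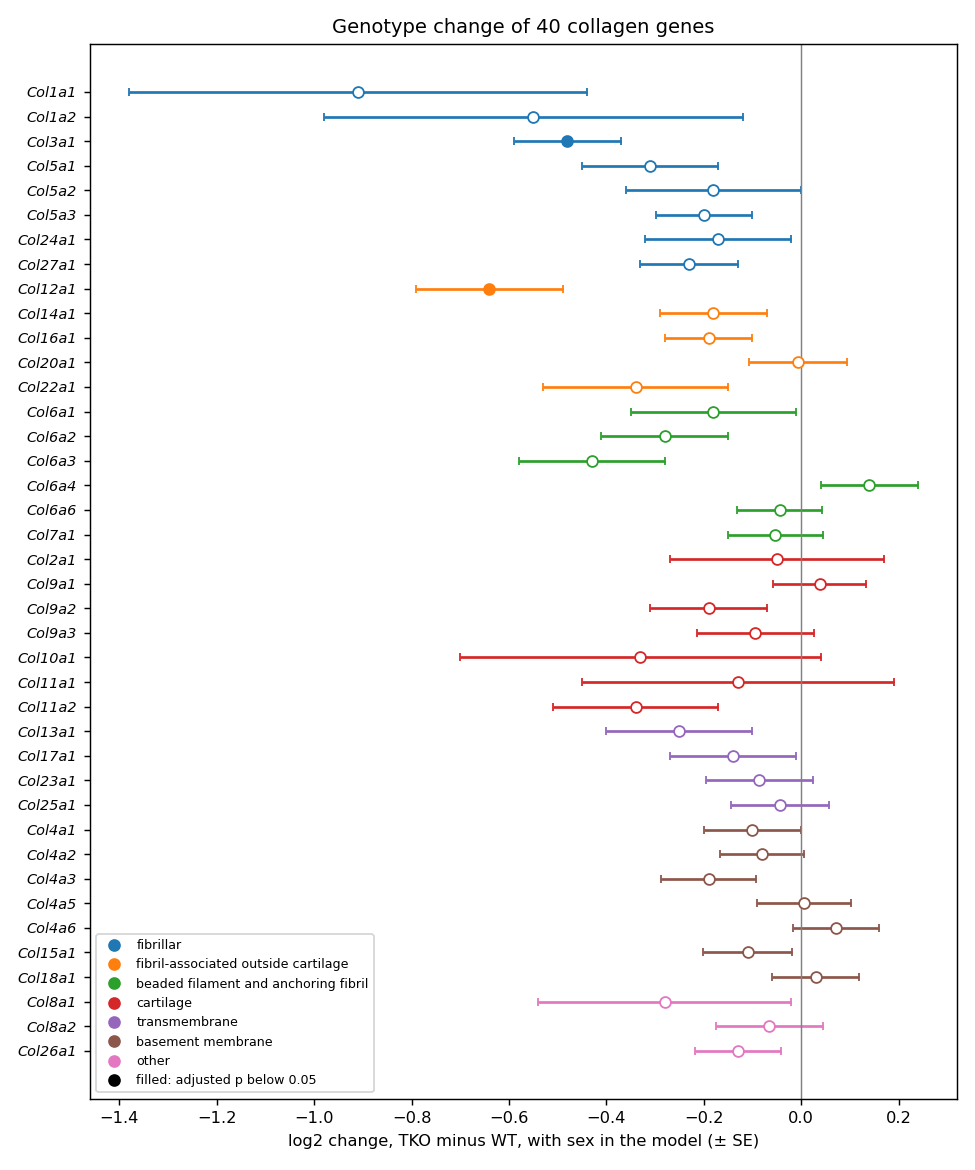
Log2 change, TKO minus WT, of the 40 tested collagens with sex in the model (points, bars ± SE), coloured by class, filled where the limma adjusted p was below 0.05. Col3a1 and Col12a1 are the filled points, 35 of 40 points lie left of 0, and Col1a1 has the longest bar.

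Among the 8 fibrillar chains 1 fell, Col3a1, and 7 did not pass. The median change of the class was -0.27, with all 8 below 0, and it was 0.016 with the mesenchyme covariate and -0.14 with the bone covariate. Col1a1 had the largest estimate of any collagen, -0.91 ± 0.47 SE (limma adjusted p = 0.302), although its plain means, 10.81 ± 1.12 and 10.63 ± 1.34 (SD, n = 5 each), differed by only -0.18. The estimate was -0.53 without TKO 3, close to that of Col12a1 (-0.52) in the same fit, -0.58 without WT 4, -1.39 without WT 3 and 0.12 with the mesenchyme covariate. Col1a2 was at -0.55 ± 0.43 SE with sex in the model and at 0.15 without it, so that its direction was not settled. Of the type V chains, which nucleate type I fibrils, Col5a1 was at -0.31, Col5a2 at -0.18 and Col5a3 at -0.20. Col27a1, a fibrillar collagen of cartilage, was at -0.23 and Col24a1, found in developing bone, at -0.17. Col27a1 was 6.44, 6.71, 6.62, 6.82 and 6.41 in WT and 6.40, 6.33, 6.31, 6.42 and 6.46 in TKO, a narrow TKO group that overlapped the lowest WT values.

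Among the 5 tested fibril-associated chains outside cartilage 1 fell, Col12a1. Col22a1, found where tissues meet, such as at tendon ends, was at -0.34, Col16a1 at -0.19, Col14a1 at -0.18 and Col20a1 at -0.0062, and none of the 4 passed. Col20a1 turned above 0 when arrays were centred on their medians. None of 6 beaded filament and anchoring fibril genes passed. Col6a3, the long chain of type VI collagen, had the smallest p among collagens that did not pass. It was 6.79, 6.49, 7.34, 7.26 and 7.04 in WT and 6.64, 6.98, 6.19, 7.10 and 6.94 in TKO, with a change of -0.43 ± 0.15 SE (limma adjusted p = 0.129), and TKO 3 and WT 2 were its lowest embryos. Col6a2 was at -0.28, Col6a1 at -0.18, Col6a4 at 0.14, Col6a6 at -0.044 and Col7a1 at -0.053.

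None of the 7 cartilage chains passed, and the median change was -0.13. This median was not settled in sign or size: it was 0.025 without TKO 3, -0.35 without WT 3, -0.22 without WT 2, 0.11 with the mesenchyme covariate and -0.0045 with the bone covariate. Col11a2 was at -0.34 and Col10a1 at -0.33, with an SE of 0.17 and 0.37. Col2a1, the main collagen of cartilage, was 6.24, 5.99, 6.24, 6.81 and 6.0 in WT and 5.86, 6.36, 5.95, 7.14 and 6.69 in TKO. Its highest embryos were TKO 4 and WT 4, the genotypes overlapped throughout, and its change was -0.050 ± 0.22 SE. Col11a1 (-0.13), Col9a2 (-0.19), Col9a3 (-0.094) and Col9a1 (0.038) did not pass.

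The basement membrane chains were the flattest class. None of 7 tested members passed, none had a range of 1 or more on the log2 scale, and the median change was -0.080. Without TKO 3 the median was -0.014, without WT 3 -0.030, without TKO 1 -0.13, and with the mesenchyme covariate 0.0023. Col4a1 was 7.13, 6.72, 6.87, 6.91 and 6.79 in WT and 6.94, 6.80, 6.60, 6.85 and 6.69 in TKO, with a change of -0.10 ± 0.10 SE, and Col4a2 was at -0.080 ± 0.086 SE. Col4a3, a chain of specialised epithelial membranes, was at -0.19 ± 0.098 SE (limma adjusted p = 0.298). Its WT values of 4.85, 5.14, 4.95, 5.08 and 4.81 and TKO values of 4.78, 4.70, 4.76, 4.83 and 4.81 met at 4.81 to 4.83. Col15a1 (-0.11), Col4a6 (0.071), Col18a1 (0.030) and Col4a5 (0.0062) stood near 0.

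The transmembrane and other collagens did not pass either. Col17a1 was 8.06, 8.11, 7.81, 7.78 and 7.79 in WT and 7.79, 7.86, 7.74, 7.34 and 7.95 in TKO, lowest in TKO 4, with a change of -0.14 ± 0.13 SE (limma adjusted p = 0.585). Col13a1, a collagen of cell contacts with the matrix, was at -0.25, Col23a1 at -0.086 and Col25a1 at -0.043. Of the rest, Col8a1 was at -0.28 ± 0.26 SE, Col26a1 at -0.13 and Col8a2 at -0.065. The 4 members below the filter were Col4a4 (4.17 to 4.67 over the 10 embryos), Col6a5 (3.31 to 3.82), Col19a1 (3.90 to 4.34) and Col28a1 (3.33 to 3.82).

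Collagens were also set against labelled sex, a comparison added after the data were seen. None of the 40 passed for male against female, where 0.0361% of all genes did. Of the 40, 33 had a male minus female difference above 0, against 45.8% of all genes, and 13 were higher in males with an unadjusted p below 0.05, against 3.50% of all genes. The largest were those of Col1a1 (1.83 ± 0.48 SE, limma adjusted p = 0.411) and Col1a2 (1.74 ± 0.44 SE, limma adjusted p = 0.402), and the smallest p were those of Col12a1 (0.89 ± 0.16 SE, limma adjusted p = 0.152) and Col3a1 (0.60 ± 0.11 SE, limma adjusted p = 0.161). The bone markers were higher in males as well, with a median difference of 1.3 over 7 genes. The highest mean bone level was nevertheless that of a female, WT 4 (1.39). Labelled sex and bone markers thus moved together in these embryos, WT 4 apart. Their parts in the collagen values were not tested.

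Genes that make, bind and cut collagen were read from lists. Of 33 tested processing genes 1 rose, P4ha3, a chain of the enzyme that hydroxylates proline in collagen (6.53 ± 0.093 to 6.89 ± 0.12, SD, n = 5 each, 1.23-fold, limma adjusted p = 0.0464), none fell and 32 did not pass. That share of 33 lies below the 4.39% of all genes that rose. Sec24d, a coat protein that exports procollagen, was at -0.45 (limma adjusted p = 0.0767) and the crosslinking enzyme gene Loxl1 at 0.23. Of 7 tested receptors 1 fell, 14.3% against 1.12% of all genes. This was Itga11, the integrin through which fibroblasts hold type I collagen (6.0 ± 0.22 to 5.63 ± 0.30, SD, n = 5 each, 1.43-fold, limma adjusted p = 0.0467). Ddr1 (-0.21) and Ddr2 (-0.44), the collagen receptor kinases, did not pass. None of 9 proteases and inhibitors passed: Timp4 was at -1.03, Mmp2 at -0.26 and Mmp9, a protease of osteoclasts, at -1.29, with an SD of 1.38 in WT and 1.9 in TKO. The medians of the 3 lists were -0.11, -0.19 and -0.33. P4ha3 was apart over all embryos (6.42 to 6.64 in WT, 6.68 to 6.97 in TKO), as were 7.60% of all genes tested. So was Ddr1, which did not pass (9.40 to 9.60 in WT, 9.20 to 9.38 in TKO), while Itga11 overlapped (5.77 to 6.25 and 5.31 to 6.12). The calls of P4ha3 and Itga11 lay near the threshold. With an embryo left out, the changes were 0.25 to 0.36 for P4ha3 and -0.57 to -0.45 for Itga11. The call of P4ha3 was lost when any embryo but WT 2 was left out (limma adjusted p up to 0.208). That of Itga11 was lost without WT 1, WT 3, WT 4, TKO 1, TKO 2, TKO 3 or TKO 5 (limma adjusted p up to 0.185). Both were also lost with the mesenchyme covariate (limma adjusted p = 0.229 and 0.307), the bone covariate (0.105 and 0.089), no filter on dim genes (0.0597 and 0.0574) and quantile normalization (0.053 each). That of P4ha3 was lost with a replicate block (limma adjusted p = 0.0648) and that of Itga11 without sex (limma adjusted p = 0.164).

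Other marker lists give the setting of these changes, beside 4.39% of all genes that rose and 1.12% that fell. Of 11 multiciliated genes 4 rose, Gmnc (2.92-fold, limma adjusted p = 5.6e-05), Ccno (1.70-fold), Mcidas (1.46-fold) and Deup1 (1.42-fold), which act in making many centrioles per cell, and 1 fell, Cfap43 (1.46-fold, limma adjusted p = 0.0239). Of 10 skeletal muscle genes 2 fell, Tnnt3 (2.01-fold, limma adjusted p = 0.0302) and Ttn (1.47-fold, limma adjusted p = 0.0478). Of 8 endothelial genes 1 fell, Tie1 (1.31-fold, limma adjusted p = 0.0400), and of 13 cartilage markers 1 rose, Mia (1.49-fold, limma adjusted p = 0.0347). None of 17 mesenchyme, 7 bone, 7 leukocyte, 4 glia or 13 epithelial markers passed. Yet 8 of the 17 mesenchyme markers had an unadjusted p below 0.05, and 7 of them were lower. These 7 are 41.2% of the list, against 7.72% of all genes and 12.5% of the 40 collagens. Lower at the same level were 0 of 7 bone, 1 of 7 leukocyte, 1 of 4 glia and 1 of 13 epithelial markers. By smallest p, the mesenchyme genes were Postn (-0.90), Cdh11 (-0.53) and Tnc (-0.69), and the bone genes Phex (-0.74), Dmp1 (-1.07) and Sp7 (-0.45). The leukocyte genes were Cd52 (-0.37), Csf1r (-0.21) and Laptm5 (-0.26), the glia genes S100b (-0.68), Erbb3 (-0.23) and Sox10 (-0.017), and the epithelial genes Grhl2 (-0.21), Foxa2 (0.21) and Cldn7 (0.14).

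The median change was lowest for skeletal muscle, -0.87, with 10 of 10 genes below 0 and 8 of 10 lower at an unadjusted p below 0.05, 80.0% against 7.72% of all genes. It was -0.45 for bone, -0.29 for endothelium, -0.26 for leukocytes, -0.20 for mesenchyme, -0.12 for glia, -0.10 for cartilage, -0.051 for epithelium and 0.069 for multiciliated genes. The calls of Tnnt3, Ttn and Tie1 were lost without sex (limma adjusted p = 0.11, 0.137 and 0.156) and without WT 3 (limma adjusted p = 0.242, 0.306 and 0.18). Those of Tnnt3, Ttn, Tie1 and Mia were lost without TKO 1 or TKO 3 (limma adjusted p of 0.0536 to 0.142) and with the mesenchyme covariate (limma adjusted p = 0.127, 0.213, 0.221 and 0.171) or the bone covariate (0.0514, 0.0986, 0.0997 and 0.0862). Further embryos whose omission ended a call were TKO 2 and TKO 4 for Tnnt3, WT 1, WT 4, TKO 2, TKO 4 and TKO 5 for Ttn, WT 1, WT 4, TKO 4 and TKO 5 for Tie1, WT 1, WT 2, WT 4, TKO 4 and TKO 5 for Mia, and TKO 1 for Cfap43. A replicate block ended the calls of Tie1 and Mia (limma adjusted p = 0.0904 and 0.052), and leaving out WT 3 those of Deup1, Mcidas and Cfap43 (limma adjusted p = 0.0762, 0.0799 and 0.175). The mesenchyme covariate also ended the calls of Deup1, Mcidas and Cfap43 (limma adjusted p = 0.0751, 0.0782 and 0.118). The bone covariate ended that of Cfap43 (limma adjusted p = 0.0675). The calls of Gmnc and Ccno held with both covariates. Those of Tie1 and Ttn were lost with no filter on dim genes, median-centred arrays or quantile normalization (limma adjusted p of 0.0539 to 0.0607). The part of these tissues in the collagen values was not tested.

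A further probe set with a single symbol was found for 3 collagens, and it followed the one used. That of Col1a2 correlated at 0.979 with the one used and had a change of -0.90 against -0.55, that of Col6a1 correlated at 0.896 (-0.21 against -0.18), and that of Col5a1 at 0.841 (-0.071 against -0.31). All 3 pairs pointed the same way in the model with sex.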

How the data were processed

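RNA from laser-captured nasal respiratory epithelium of 10 embryos was measured on Affymetrix arrays. The deposited values are log2 values that the authors made with RMA in the Affymetrix Expression Console, per the submitters' processing notes; no version or genome build was found in these sources. Scanner files were not used here. The table held 41345 probe sets, 23521 with 1 gene symbol. The highest-mean probe set stood for each of 22180 genes, and genes with a mean below the 25th percentile were left out. Genotype was tested on 16635 genes with limma 3.58.1 in R 4.3.3 (sex and genotype, intensity trend, two-sided, Benjamini-Hochberg over all genes, threshold 0.05). The fit was also run on simulated data with independent genes and no sex effect. That run does not cover the variation that genes share in these arrays. Exact permutation tests were two-sided. The numbers of the replicates did not pair the arrays. Members, classes and lists were chosen with earlier results of these data known. Named were all called collagens, those with arrays apart and all tested members by class. From the processing, receptor and protease lists the called genes were named, filled up to 3 by smallest p. From each marker list the called genes were named or, where none was called, the 3 with the smallest p. List genes without a probe set of a single symbol were not analysed here. Of 10 arrays, 5 per genotype limit the precision. Alternatives tried were other filters, scalings, variance models, covariates and probe set rules, a replicate block, and each array left out.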

Additional observations from a re-analysis of the deposited data

Results flagged for a closer look

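Among 88 groups of 5 embryos examined (44 collagens in 2 genotypes), 2 had an embryo far from the others; chance alone gives about 1 in 20 groups. Col9a2 was 7.38 in WT 4, against 6.98 in the next WT embryo. Col7a1 was 7.30 in TKO 5, against 6.98 in the next TKO embryo.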

How the results depend on the processing

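No collagen was called higher under any setting run, and 0 were lower without sex or with the mesenchyme covariate. Leaving out each embryo in turn gave 0 to 2 lower collagens, with fewer than 2 in 5 of 10 cases (without WT 1, WT 3, TKO 1, TKO 2 or TKO 3). With a replicate block 282 genes were lower in place of 186, and no collagen call changed; numbers shared between genotypes did not pair the arrays, with correlations of deviations of -0.0847, -0.0595, -0.127, 0.379 and -0.0627. Over all genes, 730 higher and 186 lower became 153 and 30 with the mesenchyme covariate and 405 and 87 with the bone covariate, and 121 were lower on median-centred arrays. Leaving out an embryo gave 191 to 886 higher (191 without WT 3, 247 without TKO 3, 473 without TKO 1) and 19 to 398 lower (19 without WT 3, 398 without WT 5, 60 without TKO 3, 79 without TKO 1, 101 without TKO 2, 108 without WT 4 and 114 without WT 1). The cause was not tested. Of the chain pairs, 5 in place of 9 passed without the 2 farthest embryos, where fewer embryos were tested.

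Signs turned only for collagens that were not called in either setting. Without sex these were Col1a2 (0.15), Col2a1 (0.14), Col4a5 (-0.022), Col6a1 (0.034), Col8a2 (0.004), Col11a1 (0.14), Col18a1 (-0.016), Col20a1 (0.053) and Col25a1 (0.026). With the mesenchyme covariate they were Col1a1 (0.12), Col1a2 (0.37), Col2a1 (0.41), Col4a1 (0.02), Col4a2 (0.0023), Col4a5 (-0.043), Col5a2 (0.061), Col6a1 (0.16), Col6a6 (0.042), Col8a2 (0.011), Col10a1 (0.24), Col11a1 (0.53), Col20a1 (0.051), Col22a1 (0.015), Col23a1 (0.056), Col24a1 (0.11) and Col25a1 (0.067). With the bone covariate they were Col2a1 (0.17), Col4a5 (-0.0059), Col11a1 (0.26) and Col25a1 (0.014). The replicate block turned Col4a5 (-0.00044), median-centring turned Col20a1 (0.024) and quantile normalization Col20a1 (0.027). Leaving out an embryo gave changes of -0.36 to 0.083 for Col2a1, -0.025 to 0.046 for Col4a5, -0.16 to 0.029 for Col8a2, -0.014 to 0.10 for Col9a1, -0.18 to 0.025 for Col9a3, -0.35 to 0.13 for Col11a1, -0.013 to 0.061 for Col18a1, -0.066 to 0.052 for Col20a1, -0.19 to 0.0054 for Col23a1 and -0.12 to 0.019 for Col25a1.

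Among pairs that did not pass, r turned by rank for Col9a1 and Col9a2 (-0.21) and Col9a2 and Col9a3 (-0.042), as deviations from genotype means for Col4a5 and Col4a6 (0.019) and Col9a2 and Col9a3 (-0.10), and without the 2 farthest embryos for Col8a1 and Col8a2 (-0.23). On median-centred arrays it turned for Col4a5 and Col4a6 (0.17), Col8a1 and Col8a2 (-0.02), Col9a1 and Col9a2 (-0.057) and Col9a2 and Col9a3 (-0.046). Leaving out an embryo gave -0.27 to 0.051 for Col4a5 and Col4a6, -0.16 to 0.17 for Col8a1 and Col8a2, -0.17 to 0.14 for Col9a1 and Col9a2 and -0.27 to 0.15 for Col9a2 and Col9a3. The 4 members whose signal lay below the filter were not tested.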
